A study of Mus musculus with 8 samples.

Results

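The genes of MHC class II antigen presentation and Ciita, their transcriptional coactivator, were followed through the immune cells of E0771 mammary tumors. The 10 genes were taken by symbol from the 32285 genes that each count table listed: the classical chains H2-Aa, H2-Ab1 and H2-Eb1, the invariant chain Cd74, the peptide exchange chains H2-DMa, H2-DMb1 and H2-DMb2, the H2-O chains H2-Oa and H2-Ob, and Ciita. All 10 were detected. They were measured per mouse in Cd209a+ dendritic cells, Ccr7+ dendritic cells, C1qa-high macrophages, Ly6c2-high monocytes and lymphoid (T and NK) cells, and compared among 3 tumor lines.

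E0771 is a triple-negative mammary carcinoma line of C57BL/6 mice. Tumors of the parental E0771 line (2 mice), of E0771-Res1 (3 mice) and of E0771-Res2 (3 mice) were grown in the mammary fat pad and taken on day 18, and sorted CD45+ cells were profiled by droplet-based 3′ single-cell RNA-seq. Both resistant lines were established from parental tumors that relapsed after paclitaxel plus anti–PD-1, and each is a single line, so a difference between tumor lines cannot be told apart from a difference between 2 cultures. The labels name no treatment of the 8 mice sequenced and give neither age nor sex, and a further parental mouse was not analysed here. Cells of each mouse carried a multiplexing oligonucleotide tag and were pooled for processing. No cell barcode was shared between mice. Totals ran from 5036667 to 18894504 counts per mouse, and 10605 of 11430 cells passed the filters (1727 parental, 3561 E0771-Res1 and 5317 E0771-Res2). The kept cells of the E0771-Res2 mice were shallower, with medians of 5589 to 7001 counts per cell, than those of the other mice, with medians of 7631 to 8160.

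MHC class II molecules present peptides from endocytosed protein to CD4 T cells. In the endosome Cd74 holds the groove until its last fragment is replaced by antigenic peptide with the help of H2-DM, a step that H2-O (DO) restrains. Transcription of the set depends on CIITA, which does not bind DNA itself but is recruited by the RFX, CREB and NF-Y factors that occupy the X and Y boxes of these promoters, and interferon γ raises Ciita, in part through IRF1. Dendritic cells carry Ciita constitutively, whereas maturing dendritic cells are known to switch its transcription off while they keep loaded complexes at the surface. In C57BL/6 mice the I-E α chain is not made, so that the product of H2-Eb1 lacks its usual partner.

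Of the members, 8 lie within 224335 bases of chromosome 17 in the GENCODE annotation of GRCm38, all protein coding: H2-Oa at chr17:34092340-34095234 (+), H2-DMa at chr17:34119541-34139101 (+), H2-DMb2 at chr17:34143307-34151555 (+), H2-DMb1 at chr17:34153072-34160230 (+), H2-Ob at chr17:34238903-34254414 (+), H2-Ab1 at chr17:34257689-34269419 (+), H2-Aa at chr17:34282744-34287823 (-) and H2-Eb1 at chr17:34305867-34316674 (+). RefSeq promoter windows on GRCm38.p6, reaching from 250 bases before to 50 bases after a transcription start, were matched for 7 of the 10 members. A RefSeq start can lie inside the GENCODE gene span given above, farthest inside for H2-DMb2 and for both windows of H2-DMa. Both strands were searched for an X box core (AG, any 2 bases, AC, any 2 bases and ATG), for CCAAT, the core of the Y box, and for TGACGTCA, the cyclic AMP response element. The 150 bases before the start are shown for 6 members, to show where these letters lie and how their arrangement differs between members, with matches in capitals and a CCAAT on the other strand reading ATTGG.
H2-Eb1, chr17:34305717-34305866 (+): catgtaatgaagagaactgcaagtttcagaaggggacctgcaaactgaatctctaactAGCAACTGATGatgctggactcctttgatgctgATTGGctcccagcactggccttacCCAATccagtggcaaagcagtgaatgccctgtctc
H2-Aa, chr17:34287824-34287973 (-): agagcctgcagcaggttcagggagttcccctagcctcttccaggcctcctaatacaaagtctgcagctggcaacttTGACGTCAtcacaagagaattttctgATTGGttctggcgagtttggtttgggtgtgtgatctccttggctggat
H2-DMb1, chr17:34153041-34153190 (+): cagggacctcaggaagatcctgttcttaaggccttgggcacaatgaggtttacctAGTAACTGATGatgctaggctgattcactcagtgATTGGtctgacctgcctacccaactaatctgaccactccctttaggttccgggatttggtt
H2-DMb2, chr17:34145099-34145248 (+): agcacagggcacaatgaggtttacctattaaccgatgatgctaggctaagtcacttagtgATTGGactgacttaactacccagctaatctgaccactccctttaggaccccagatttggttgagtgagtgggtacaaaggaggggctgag
H2-Ob, chr17:34238755-34238904 (+): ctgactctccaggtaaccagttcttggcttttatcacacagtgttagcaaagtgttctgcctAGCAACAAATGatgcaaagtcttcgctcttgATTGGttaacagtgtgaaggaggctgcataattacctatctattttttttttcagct
H2-Oa, chr17:34092229-34092378 (+): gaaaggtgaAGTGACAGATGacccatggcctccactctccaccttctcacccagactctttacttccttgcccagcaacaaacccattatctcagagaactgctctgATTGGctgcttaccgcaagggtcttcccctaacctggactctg

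A CCAAT match was found for all 7 members and an X box core for 4 of them. H2-DMa had 2 windows, and its CCAAT match lay in 1 of them, 198 bases before a RefSeq start inside the gene span. In H2-Eb1, H2-DMb1 and H2-Ob the core began 92, 95 and 88 bases before the start and 33, 34 and 31 bases before a CCAAT match, and in H2-Oa it began 141 bases before the start and 98 bases before the CCAAT. The H2-Aa window held no exact match to the X box core and had TGACGTCA 74 bases before the start, with its CCAAT match at 48 bases. Its nearest stretch, 35 bases before the CCAAT, differed from the core in 3 of 7 fixed letters. Only exact matches were counted, so a more divergent X box would have been missed. H2-DMb2 carried, at the 34-base spacing of H2-DMb1, an 11-base stretch that differed from the H2-DMb1 core by G2T and T7C, counted from 1 at its 5′ end, of which G2T falls on a fixed letter of the motif. Of 32851 RefSeq windows of the same length, 3.09% held the X box core, 37.4% held CCAAT, 1.42% held both and 1.79% held TGACGTCA. H2-DMb1 and H2-DMb2 are near copies, with 96.0% identity over 1045 aligned bases of their longest transcripts and identical runs of up to 221 bases, so 3′ reads may have been assigned between them or dropped as ambiguous, and the values of either are uncertain to that extent. The other 2 members lie apart, Ciita at chr16:10480059-10528418 (+) and Cd74 at chr18:60803848-60812652 (+).

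The 5 cell classes were named from marker genes of clusters that had been built without the 10 members, and the members' levels had no part in the naming. The Cd209a+ dendritic cells were 1 cluster of 283 cells led by Cd209a, Ifitm1, Apod and Mgl2. The Ccr7+ dendritic cells were 1 cluster of 279 cells led by Fscn1, Tbc1d4, Ccr7 and Il4i1, genes of migratory, mature dendritic cells. The 3957 macrophages came from 6 clusters, among them 1 led by the heat shock gene Hspa1a and 1 by the iron-handling stress gene Hmox1, the 3443 monocytes from 5, and the 968 lymphoid cells from a CD4 T, a CD8 T and an NK cluster. The names C1qa-high and Ly6c2-high describe class sums per mouse. C1qa was at 3038 to 5064 CPM in macrophages and 291 to 770.8 CPM in monocytes. Ly6c2 was at 839 to 2134 CPM in macrophages and 3120 to 4665 CPM in monocytes. Clusters were assigned by scores over whole marker lists, so a single cluster was not required to be high in the gene naming its class. Xcr1+ dendritic cells numbered 41 and reached the minimum of 10 cells per mouse in 1 mouse alone, and no B cell cluster was named. The class sums of single mice held 66327 to 508832 counts in Ccr7+ dendritic cells, 157277 to 512186 in Cd209a+ dendritic cells, 997033 to 6859222 in macrophages, 1499151 to 3733646 in monocytes and 370580 to 1598094 in lymphoid cells, so low-abundance members were measured least precisely in Ccr7+ dendritic cells. Levels are given as CPM, the counts of a gene scaled to the same library total for every class sum of a mouse, and because the 3′ assay and gene length affect each gene, they were compared between classes and not between genes.

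The classical chains were highest in Cd209a+ dendritic cells, followed by Ccr7+ dendritic cells, macrophages, monocytes and lymphoid cells. The sum of H2-Aa, H2-Ab1 and H2-Eb1 was 33128 and 36779 CPM in Cd209a+ dendritic cells of the parental mice, 32244, 33241 and 37691 CPM with E0771-Res1, and 24626, 27823 and 37107 CPM with E0771-Res2. In Ccr7+ dendritic cells it was 22210 and 16372 CPM in parental, 24171, 23505 and 23448 CPM in E0771-Res1 and 24209, 26203 and 28037 CPM in E0771-Res2 mice. Each mouse had a higher sum in its Cd209a+ than in its Ccr7+ cells, and the means were 32830 ± 4637 and 23519 ± 3408 CPM (SD, n = 8). That difference was smaller and lost its call when cells were picked by gates on marker counts in place of clusters (0.48 log2 with clusters, 0.17 with gates). The sum averaged 8805 CPM in macrophages, 6428 CPM in monocytes and 3223 CPM in lymphoid cells. For each gene the classes were ranked by their own mean levels, so the order came from the same data, and neighbors in that gene's order were compared within mice on log2(CPM + 1) by 2-sided exact permutation tests of sign flips, for which 8 mice allow no p below 0.00781, and 28 of 44 neighbor pairs, over the 10 members and the classical sum, passed after Benjamini-Hochberg adjustment.

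Between the 2 dendritic cell classes, H2-Ab1 was the classical chain that passed the test. This I-A β chain averaged 11876 ± 1572 CPM in Cd209a+ and 6112 ± 1418 CPM in Ccr7+ cells and was lower in the Ccr7+ cells of all 8 mice, by 0.99 on the log2 scale (exact permutation test, adjusted p = 0.0143), although with gated cells the difference was -0.52 and missed the threshold (exact permutation test, adjusted p = 0.0688). H2-Aa, the I-A α chain, averaged 10979 ± 1576 and 8831 ± 1232 CPM, with 2 mice higher in Ccr7+ cells, and that difference (-0.31) missed the threshold (exact permutation test, adjusted p = 0.0537). The I-E β chain H2-Eb1 averaged 9975 ± 1593 and 8576 ± 1203 CPM and missed it too (-0.21, exact permutation test, adjusted p = 0.153; 0.05 with gated cells). H2-Ab1 accordingly made up 34.1% to 37.6% of the classical counts per mouse in Cd209a+ cells and 18.6% to 33.7% in Ccr7+ cells, 2 ranges that did not overlap.

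Cd74, the invariant chain, followed the order of the classical chains. It measured 23601 and 26325 CPM in Cd209a+ dendritic cells of the parental mice, 23386, 23570 and 27322 CPM with E0771-Res1 and 18909, 19486 and 23846 CPM with E0771-Res2. In Ccr7+ cells it measured 12754 and 11568 CPM, 16058, 14293 and 13094 CPM, and 14396, 13353 and 15974 CPM in the same order of lines. The 2 sets did not overlap, and Cd74 was lower in Ccr7+ cells of all 8 mice, by 0.74 on the log2 scale (exact permutation test, adjusted p = 0.0143). Macrophages (6777 CPM on average) and monocytes (5751 CPM) were neighbors whose difference missed the threshold (0.20 log2, exact permutation test, adjusted p = 0.0776).

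**Figure D1:**
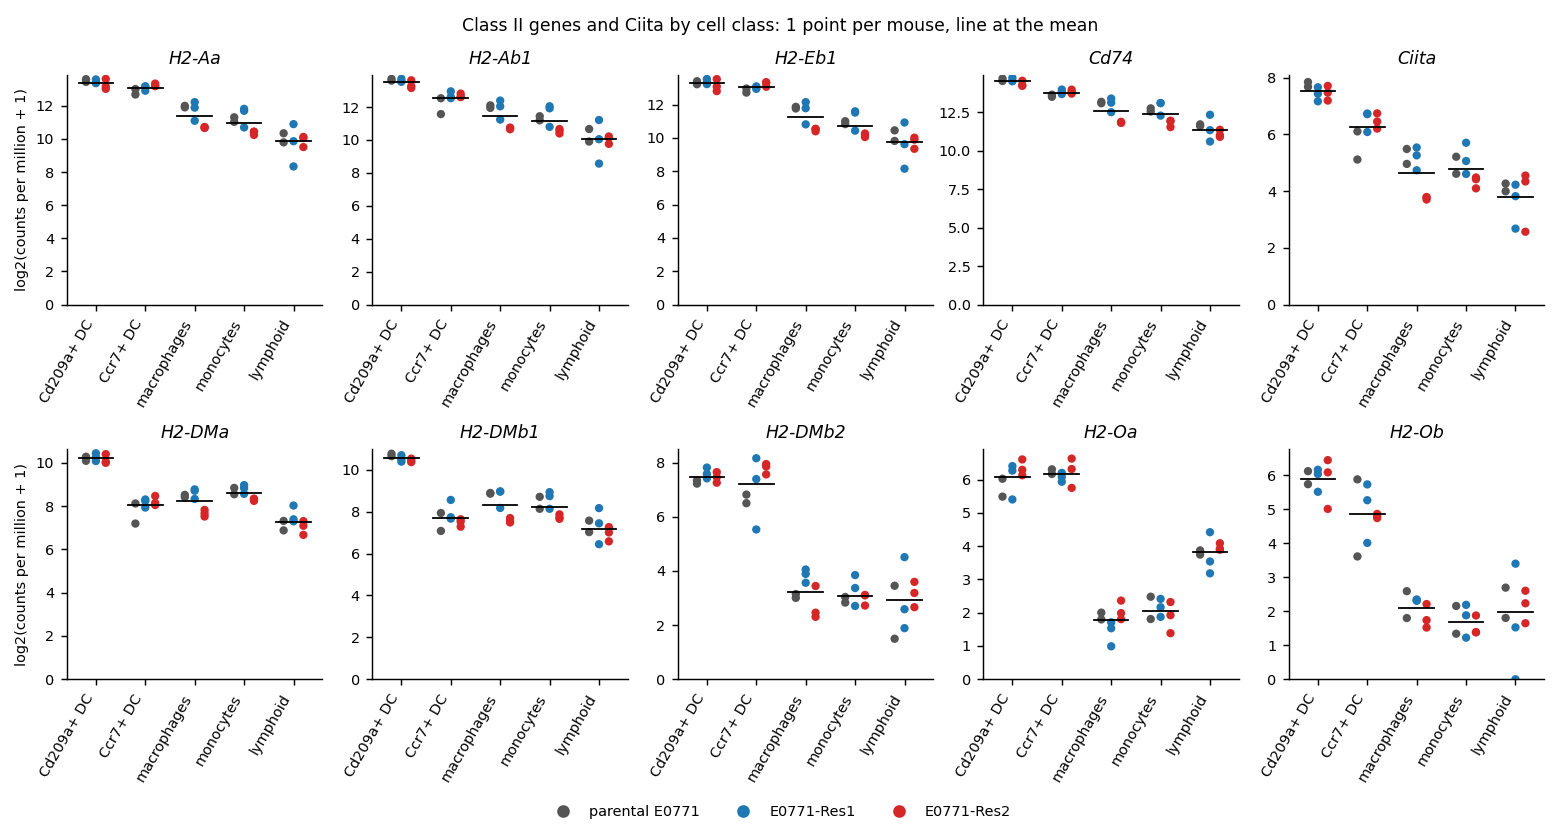
Levels of the 10 members, log2(CPM + 1) on the vertical axis, in 5 cell classes, with 1 point per mouse colored by tumor line and a line at the mean of 8 mice. H2-DMa and H2-DMb1 drop from Cd209a+ to Ccr7+ dendritic cells. H2-DMb2 and H2-Oa sit at similar levels in both dendritic cell classes and lie far lower in macrophages and monocytes.

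H2-DM, which exchanges the Cd74 remnant for antigenic peptide, held the members with the largest differences between the dendritic cell classes, H2-DMb1 and H2-DMa. H2-DMa measured 1093 and 1245 CPM in parental, 1086, 1392 and 1223 CPM in E0771-Res1 and 1355, 1065 and 1025 CPM in E0771-Res2 Cd209a+ cells, against 278 and 146, 316, 302 and 244, and 282, 265 and 354 CPM in Ccr7+ cells. It was lower in Ccr7+ cells of 8 of 8 mice, by 2.14 on the log2 scale (exact permutation test, adjusted p = 0.0143). H2-DMb1, its β partner, averaged 1496 ± 157 CPM in Cd209a+ and 213 ± 74.2 CPM in Ccr7+ cells, a difference of -2.86 on the log2 scale in 8 of 8 mice (exact permutation test, adjusted p = 0.0143). Ccr7+ dendritic cells thereby stood outside the order seen for the classical chains. Macrophages (312 CPM of H2-DMa on average) and monocytes (389 CPM) stood above the Ccr7+ mean of 273 ± 61.5 CPM, although the step from macrophages to Ccr7+ cells was not separated (0.16 log2), and for H2-DMb1 the steps among macrophages (350 CPM), monocytes (318 CPM) and Ccr7+ cells were not separated either. Nor was the H2-DMb1 step from Ccr7+ to lymphoid cells (0.49 log2, exact permutation test, adjusted p = 0.115), whose level is not read as expression below. The Ccr7+ counts of H2-DMb1 enter the H2-DMb2 share and the H2-O ratio that follow, and the part of free RNA in them was not tested.

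H2-DMb2 did not share this pattern with its near copy. It measured 162 and 149, 225, 191 and 170, and 199.8, 152 and 176 CPM in Cd209a+ cells of the 3 lines, and 112 and 89.6, 167, 45.2 and 285, and 231, 246 and 188 CPM in Ccr7+ cells. The ranges overlapped, with 4 of 8 mice higher in Ccr7+ cells (-0.25 log2, exact permutation test, adjusted p = 0.563). No direction is given, because gated cells turned the difference around and called it (0.38 in 7 of 7 mice, exact permutation test, adjusted p = 0.043). Ccr7+ cells stood 3.99 log2 above macrophages, where it averaged 9.18 CPM, with 7.80 CPM in monocytes and 8.22 CPM in lymphoid cells. As a share of H2-DMb1 plus H2-DMb2 counts, a ratio in which depth cancels, H2-DMb2 accounted for 10.7% ± 2.01 in Cd209a+ and 43.8% ± 16.7 in Ccr7+ cells (n = 8) and was the larger in Ccr7+ cells of 8 of 8 mice (exact permutation test of paired differences, adjusted p = 0.0117 over 3 ratios). The E0771-Res1 replicate 2 mouse gave 10.7% in its Ccr7+ cells, from 3 of 28 counts (exact 95% binomial interval 2.27% to 28.2%), whereas the other 7 mice gave 31.4% to 61.3%. Such intervals cover counting error only.

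H2-Oa and H2-Ob encode the 2 chains of H2-O, the inhibitor of H2-DM that is best known from B cells. H2-Oa measured 43.9 and 64.3, 84.0, 76.3 and 41.4, and 96.6, 69.1 and 77.6 CPM in Cd209a+ cells, and 71.2 and 78.4, 66.8, 60.3 and 72.7, and 98.3, 52.9 and 78.9 CPM in Ccr7+ cells. The ranges overlapped and 5 of 8 mice were higher in Ccr7+ cells (0.10 log2, exact permutation test, adjusted p = 0.563). H2-Ob averaged 60.4 ± 17.04 CPM in Cd209a+ and 31.7 ± 16.4 CPM in Ccr7+ cells and was lower in the latter in 7 of 8 mice (-1.03 log2, exact permutation test, adjusted p = 0.0246), a difference that was -0.05 and not called with gated cells. Outside the dendritic cells H2-Oa averaged 13.7 CPM in lymphoid cells, 3.25 CPM in monocytes and 2.53 CPM in macrophages, with lymphoid cells above monocytes by 1.79 log2 in 8 of 8 mice (exact permutation test, adjusted p = 0.0143), and H2-Ob 3.78, 2.30 and 3.42 CPM. The count of H2-Oa plus H2-Ob per count of H2-DM (H2-DMa, H2-DMb1 and H2-DMb2) was 0.164 ± 0.0449 in Ccr7+ and 0.0456 ± 0.0109 in Cd209a+ cells, higher in Ccr7+ cells of 8 of 8 mice (exact permutation test, adjusted p = 0.0117). It rested on 5 to 53 counts of H2-Oa plus H2-Ob per mouse in Ccr7+ cells and 19 to 79 in Cd209a+ cells. The fewest in Ccr7+ cells were 5 in E0771-Res1 replicate 2 and 8 in parental replicate 3, and H2-Ob alone rested on fewer still there.

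Ciita, the coactivator, was also highest in Cd209a+ dendritic cells. It measured 203 and 229 CPM in parental, 201, 172 and 143 CPM in E0771-Res1 and 176, 145 and 208 CPM in E0771-Res2 Cd209a+ cells, against 67.8 and 33.6, 66.8, 106 and 104, and 72.7, 106 and 86.6 CPM in Ccr7+ cells. The 2 classes did not overlap, and the log2 difference was -1.25 in 8 of 8 mice (exact permutation test, adjusted p = 0.0143), against -0.34 in gated cells, where it missed the threshold (exact permutation test, adjusted p = 0.27). Ccr7+ cells in turn stood 1.49 log2 above monocytes (28.0 CPM), while monocytes, macrophages (27.5 CPM) and lymphoid cells (14.5 CPM) were not separated from their neighbors. Per 1000 counts of the classical chains, Ciita gave 5.69 ± 1.01 counts in Cd209a+ and 3.36 ± 0.865 in Ccr7+ cells and was lower in the Ccr7+ cells of 7 of 8 mice (exact permutation test, adjusted p = 0.0156). With gated cells the difference in this ratio was -0.607 and lost its call (exact permutation test, adjusted p = 0.406). The gates took cells with at least 2 counts of Ccr7 or of Cd209a, and 74.1% of the 270 Ccr7-gated and 79.5% of the 166 Cd209a-gated cells lay in the cluster class of that name, with 12.96% and 13.9% in macrophage or monocyte clusters. The differences in Cd74 (-0.59), H2-DMa (-1.63) and H2-DMb1 (-2.29) kept their call with gates, in 7 of 7 mice, whereas those of the classical sum, H2-Ab1, H2-Ob and Ciita did not. Because neighboring classes share the libraries of the same mice and were split by other genes of the same cells, these tests describe how regularly the classes differed over mice.

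**Figure D2:**
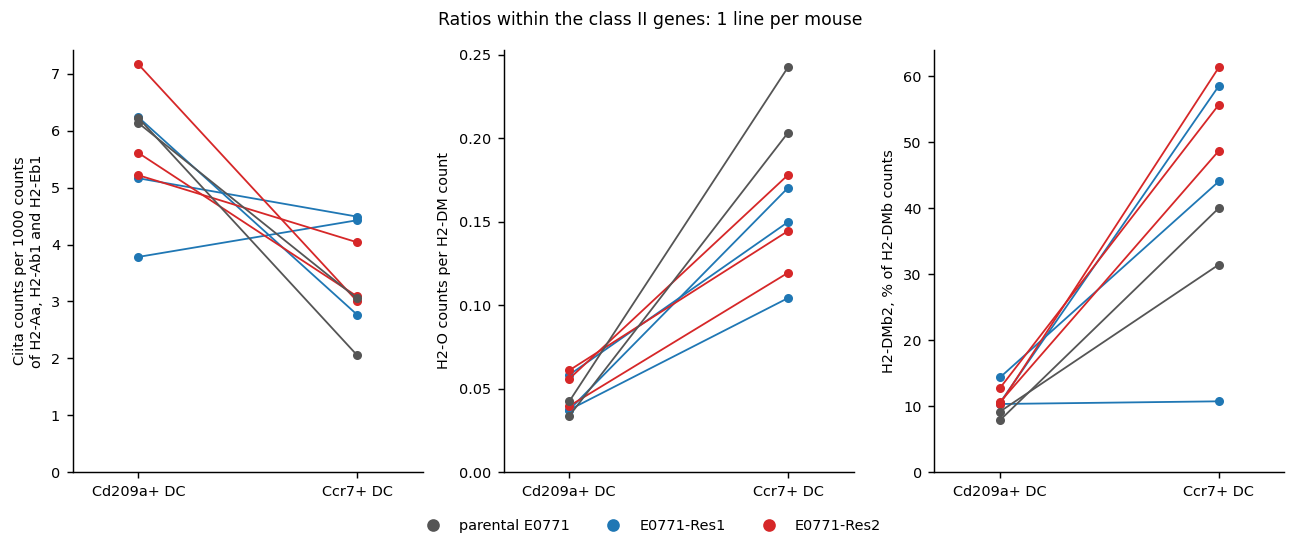
Ratios within the set in Cd209a+ and Ccr7+ dendritic cells (DC), with 1 line per mouse colored by tumor line: Ciita counts per 1000 classical counts, H2-O counts per H2-DM count, and H2-DMb2 as a percentage of H2-DMb counts. The H2-O to H2-DM ratio rises in all 8 mice, and the flat line in the right panel is the E0771-Res1 mouse with 3 H2-DMb2 counts.

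The 11 Xcr1+ dendritic cells of the E0771-Res2 replicate 2 mouse gave levels near those of Cd209a+ cells for the classical sum (32631 CPM), Cd74 (23784 CPM) and Ciita (144 CPM), with 178 CPM of H2-Ob and 25.4 CPM of H2-DMb2. With a single mouse, these are values without a test.

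Over the 40 sums of 5 classes in 8 mice, whose points share mice and depth, the level of Ciita was most like that of H2-Ab1 (Pearson r = 0.947) and Cd74 (r = 0.946) among the members and least like that of H2-Oa (r = 0.678). Outside the set, the 10 genes most like Ciita of 9025 compared were Ccnd1 (r = 0.915), Htr7, Cbfa2t3, Ifi30, Avpi1, Kmo, Hfe, Rtn1, Sh3bgrl3 and Apod (r = 0.835). The sum of the classical chains was most like Ifi30 (r = 0.924), which encodes the lysosomal thiol reductase of antigen processing, followed by Hfe (r = 0.892), Pkib, Ccnd1, Zbtb18, Avpi1, Syngr2, Rab43, Tnfsf9 and Kynu (r = 0.845). Ifi30, Hfe, Ccnd1 and Avpi1 stood on both lists.

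The lymphoid levels of the members were set beside those of transcripts high in myeloid cells, since T and NK cells of mice are not known to make class II chains or complement C1q. The lymphoid level was 44.7% of the level in all CD45+ cells for C1qa, 46.0% for C1qb, 43.8% for Apoe and 30.1% for Lyz2. It was 52.0% for Ly6c2, which is not restricted to myeloid cells. Cd74 stood at 41.8%, H2-Aa at 36.2%, H2-Ab1 at 39.7%, H2-Eb1 at 38.4%, H2-DMa at 45.5%, H2-DMb1 at 45.0%, H2-DMb2 at 38.1%, H2-Ob at 47.6% and Ciita at 45.2%. All of these but H2-Ob lay within the range of C1qa, C1qb, Apoe and Lyz2. H2-Ob, on few counts, lay within the range only with Ly6c2 included. These levels are not read as expression by lymphoid cells. By type, Cd74 averaged 64.0% in CD4 T, 18.9% in CD8 T and 29.8% in NK cells, and C1qa 60.3%, 32.2% and 36.9%. The part of free RNA or attached cells in these values was not tested. H2-Oa lay outside that range, with a lymphoid level of 141% of that in all cells on average and above it in each of the 8 mice (104% to 207%). By lymphoid type, H2-Oa averaged 17.1 CPM in CD4 T, 11.9 CPM in CD8 T and 11.4 CPM in NK cells, each on few counts.

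Between tumor lines, macrophages of E0771-Res2 tumors had less class II RNA than those of parental tumors, in 7 of the 9 members tested. Cd74 measured 9227 and 8664 CPM in parental, 8888, 5783 and 10708 CPM in E0771-Res1 and 3745, 3627 and 3578 CPM in E0771-Res2 macrophages. The 3 E0771-Res2 mice lay close together below every other mouse, and among the E0771-Res1 mice replicate 2 was the lowest. Relative to parental tumors Cd74 fell by 1.28 on the log2 scale (SE 0.16, edgeR quasi-likelihood test with Benjamini-Hochberg adjustment, adjusted p = 0.00096).

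The classical chains grouped the mice in the same way. H2-Aa measured 4099 and 3848 CPM in parental, 3807, 2193 and 4787 CPM in E0771-Res1 and 1623, 1692 and 1657 CPM in E0771-Res2 macrophages, and fell by 1.25 (SE 0.20) against parental tumors. H2-Ab1 (4396 and 3950, 4220.3, 2415 and 5379.7, and 1609.7, 1726 and 1681 CPM) and H2-Eb1 (3719.7 and 3476, 3519, 1796 and 4527, and 1346, 1481 and 1493 CPM) both fell by 1.31. No E0771-Res2 mouse overlapped with a mouse of another line in any of the 3 genes (edgeR adjusted p = 0.00227 to 0.00585).

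Ciita and the H2-DM chains were lower as well. Ciita measured 43.8 and 30.1 CPM in parental, 37.3, 25.6 and 45.4 CPM in E0771-Res1 and 12.7, 12.9 and 12.03 CPM in E0771-Res2 macrophages, and it fell by 1.62 (SE 0.22, edgeR adjusted p = 0.0013). Lymphoid cells of the same E0771-Res2 mice gave 19.3, 22.4 and 4.93 CPM of Ciita, levels not read as expression above. They also gave 136, 158 and 101 CPM of H2-DMa, 153, 128 and 94.9 CPM of H2-DMb1 and 2621, 1903 and 2062 CPM of Cd74. For H2-Aa they gave 1117, 730 and 1065 CPM, for H2-Ab1 1133, 867 and 1186 CPM and for H2-Eb1 950, 649 and 1032 CPM. The part of free RNA in the macrophage values was not tested. In macrophages H2-DMa measured 367 and 342, 437, 322 and 419, and 202, 226 and 183 CPM and fell by 0.80 (SE 0.12), and H2-DMb1 measured 475 and 464, 497, 289 and 501, and 207, 189.6 and 178 CPM and fell by 1.28 (SE 0.16). In each of these genes the E0771-Res2 mice were the 3 lowest. H2-DMb2 (-0.42, edgeR adjusted p = 0.707) and H2-Ob (-0.38, edgeR adjusted p = 0.792) did not pass, and H2-Oa was too low to be tested. The 7 of 9 members called compare with 2.63% of all 9617 genes in either direction and 1.58% called lower, and the median over the tested members was -1.28 against -0.00 over all genes. Without parental replicate 1, the parental group being then a single mouse assumed to vary like the others, 2 members kept their call, H2-DMb1 (-1.28) and Cd74 (-1.25), and the fold changes of the others moved little except for Ciita (-1.27).

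**Figure D3:**
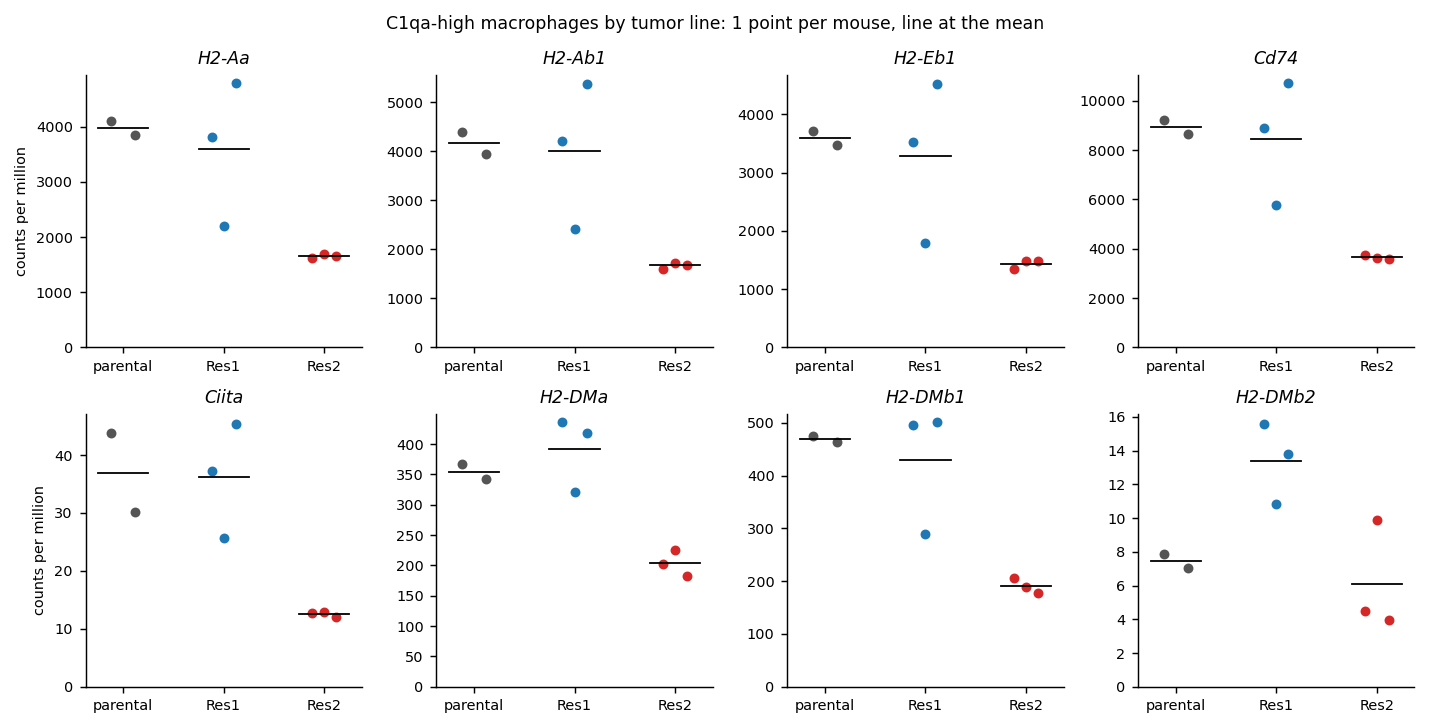
Levels of 8 members in C1qa-high macrophages, in CPM on a linear axis from 0, with 1 point per mouse and a line at the mean of each tumor line. The 3 E0771-Res2 mice form a tight group at the bottom of each panel except that of H2-DMb2, and E0771-Res1 replicate 2 is the lowest of its line.

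Against E0771-Res1 tumors, 8 of 9 members were lower in E0771-Res2 macrophages, beside 8.84% of all genes called and 4.7% called lower. The fold changes were -1.55 for Ciita, -1.22 for Cd74, -1.27 for H2-Ab1, -1.19 for H2-Eb1, -1.12 for H2-Aa, -0.96 for H2-DMa, -1.18 for H2-DMb1 and -1.32 for H2-DMb2 (SE 0.11 to 0.28, edgeR adjusted p = 0.000123 to 0.00883). H2-DMb2, at 15.6, 10.8 and 13.8 CPM in E0771-Res1 and 4.50, 9.89 and 3.94 CPM in E0771-Res2 macrophages, rested on few counts. Between E0771-Res1 and parental macrophages none of the 9 was called (0.624% of all genes; edgeR, 1 member at an unadjusted p under 0.05). The comparisons with parental and with E0771-Res1 tumors share the same 3 E0771-Res2 mice.

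Markers of other cells were measured in the same macrophage sums. The summed Cd209a+ dendritic cell markers were 262 to 264 CPM in parental, 293 to 330 CPM in E0771-Res1 and 194 to 249 CPM in E0771-Res2 macrophages, with none of 6 tested called between E0771-Res2 and parental tumors and 1 of 6 lower against E0771-Res1, and Cd209a itself was at 21.8 CPM or less in every mouse. Ccr7+ dendritic cell markers summed to 102 to 130, 85.9 to 119 and 102 to 134 CPM, and Xcr1+ markers to 405 to 465, 389 to 426 and 342 to 362 CPM. In E0771-Res2 macrophages 1 of 7 Ccr7+ markers tested was higher and 1 of 4 Xcr1+ markers lower, against both other lines. Of 6 CD4 T cell markers tested, 1 was higher against both other lines. Their sums were 93.6 to 102 CPM, against 38.1 to 84.7 CPM in parental and 44.4 to 82.0 CPM in E0771-Res1 macrophages. Of 2 neutrophil markers tested, 1 was higher against E0771-Res1. Beside these calls, 2.63% of all genes were called against parental tumors and 8.84% against E0771-Res1. Monocyte markers were lower in E0771-Res2 macrophages (2493 to 2535 CPM) than in parental ones (3631 to 3677 CPM), with 2 of 9 called lower against either other line, and spanned 1983 to 3068 CPM in E0771-Res1, while macrophage markers ran from 19561 to 21127 CPM in E0771-Res2 and 19054.5 to 19535 CPM in parental macrophages. In E0771-Res1 the macrophage markers spanned 18419 to 24296 CPM. Of 9 macrophage markers, 2 were higher in E0771-Res2 than in parental macrophages. Against E0771-Res1, 2 of 9 were higher and 1 lower. B cell markers summed to 76.4 to 102 CPM in parental, 41.6 to 77.5 CPM in E0771-Res1 and 44.5 to 58.6 CPM in E0771-Res2 macrophages. None of the 2 B cell markers tested was called in any comparison. No dendritic or B cell marker listed was at 0 in every mouse. The part of these markers in the class II difference was not tested.

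A different cluster held the largest share of the macrophages in each line: the C1qa-led cluster C1 held 37.6% of parental macrophages, the Ccl7-led C5 held 29.0% of those of E0771-Res1, and the Gpnmb-led C2 held 36.4% of those of E0771-Res2. The classical sum was therefore also read within clusters, a view chosen after seeing the data. In C1 it was 12655 to 12673 CPM in parental, 9499.8 to 17342 CPM in E0771-Res1 and 5049.8 to 5611 CPM in E0771-Res2 mice. In C2 it was 9928 to 11536, 2643 to 13263 and 4194 to 4800 CPM, in C5 13142 to 15156, 11155 to 18824 and 5297 to 6734 CPM, and in the Apoe-high, Ccl8-led C6 9878 to 14987, 5402 to 10873 and 3233 to 3752 CPM. E0771-Res2 mice thus lay below both parental mice in each of these 4 clusters, and below every E0771-Res1 mouse except in C2. The heat shock cluster C10 differed, with 2118 to 5851 CPM in parental and 4272 to 6475 CPM in E0771-Res2 mice. The parental mice together had 50 cells in C10 and 53 in C6, so their ranges there rest on few cells. The remaining macrophage cluster, C18, is not given here. It held 3.11% to 23.0% of the macrophages of an E0771-Res1 mouse and at most 2.35% in a mouse of the other lines. When the difference of mean classical level between E0771-Res2 and parental macrophages was divided arithmetically, 93.2% came from levels within clusters and the rest from cluster shares.

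**Figure D4:**
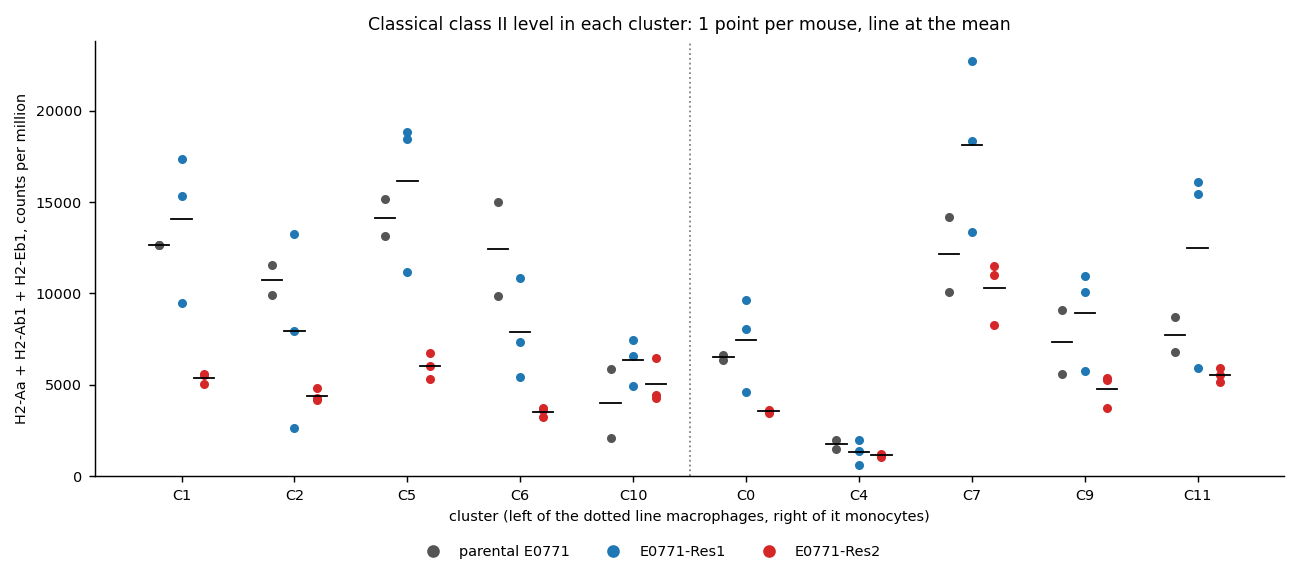
Sum of H2-Aa, H2-Ab1 and H2-Eb1 in CPM within 5 macrophage clusters (left of the dotted line) and 5 monocyte clusters (right), with 1 point per mouse and a line at the mean of each tumor line. In C1, C5 and C6 the E0771-Res2 points lie below all others, and the Chil3-led monocyte cluster C4 is low in every line.

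Counts per cell were read after thinning to a common depth, so that the shallower E0771-Res2 cells could be set beside the others. After thinning each macrophage to 2000 counts, E0771-Res2 mice averaged a median of 4.67 counts of the 10 members per cell, E0771-Res1 mice 18.3 and parental mice 18.5. More than 20 such counts were found in 18.7% to 21.0% of the macrophages of an E0771-Res2 mouse, against 31.9% to 55.0% with E0771-Res1 and 49.1% to 49.2% with the parental line, so that the E0771-Res2 range lay below both others. The share in lymphoid cells, thinned to the same depth, was 8.26% with E0771-Res2, 8.84% with E0771-Res1 and 12.6% with the parental line. Thinning left out 51 E0771-Res2, 25 E0771-Res1 and 9 parental macrophages with fewer than 2000 counts. Unthinned, at mean median depths of 6552, 9510 and 8895 counts per macrophage, the shares over 20 counts averaged 40.1%, 68.7% and 74.4%, against 24.0%, 25.4% and 26.7% in lymphoid cells, whose depths were 8270, 8020 and 8350 counts. In thinned cells the 90th percentile of macrophages was 37.3 counts in E0771-Res2 against 84.2 in parental tumors. Thinned Ccr7+ dendritic cells had more than 20 counts in 70.2%, 63.9% and 65.4% of cells (parental, E0771-Res1, E0771-Res2). For Cd209a+ cells the shares were 94.1%, 93.1% and 94.7%. The 10th percentiles were 8.45, 5.43 and 8.63 counts in Ccr7+ and 39.0, 37.1 and 26.8 in Cd209a+ cells. The 90th percentiles were 115, 144 and 142 counts in Ccr7+ and 154, 148 and 139 in Cd209a+ cells.

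Monocytes showed differences in the same direction against E0771-Res1 tumors. The classical sum was 7367 and 6251 CPM in parental, 10929, 4822 and 10143 CPM in E0771-Res1 and 4055, 3617 and 4244 CPM in E0771-Res2 monocytes, and the E0771-Res2 mice were again the 3 lowest. Against E0771-Res1, 6 of 9 members were lower (0.925% of all genes called, 0.495% called lower): H2-Ab1 by -1.12, H2-Aa by -1.09, H2-Eb1 by -1.08, Cd74 by -1.04, H2-DMb1 by -0.88 and H2-DMa by -0.49 (SE 0.11 to 0.20, edgeR adjusted p = 0.00564 to 0.034). Ciita, at 51.2, 23.3 and 32.4 CPM in E0771-Res1 and 16.1, 20.4 and 21.3 CPM in E0771-Res2 monocytes, missed the threshold (-0.96, edgeR adjusted p = 0.0594). Against parental tumors 1 of 9 was lower (0.771% of all genes called, 0.308% called lower): Cd74, at 6879.8 and 5969.95 CPM in parental and 3944, 2959 and 3838 CPM in E0771-Res2 monocytes, fell by 0.83 (SE 0.18, edgeR adjusted p = 0.0328). That call was lost without either parental mouse and without E0771-Res2 replicate 2 or 3, each of which left 0 members called, and the count rose to 3 without E0771-Res1 replicate 1 and to 5 without E0771-Res1 replicate 2. Between E0771-Res1 and parental monocytes none was called (0%; edgeR, 0 at an unadjusted p under 0.05), with 2 called higher once E0771-Res1 replicate 2, the lowest of its line, was left out.

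The monocyte clusters spanned a wide range of class II levels. The Chil3- and Hp-led cluster C4 averaged 1359 CPM of the classical sum and the Ly6i- and Il1b-led cluster C7 averaged 13692 CPM. In the interferon-stimulated, Cxcl10-led C0, E0771-Res2 mice (3458 to 3613 CPM) lay below parental (6384 to 6610 CPM) and E0771-Res1 mice (4589 to 9656 CPM). In the Cxcl9- and Gbp2-led C11 they lay below parental mice (5144 to 5926 CPM, against 6797 to 8686 CPM) but overlapped with E0771-Res1 mice (5897 to 16094 CPM), whereas in C7 the ranges of E0771-Res2 (8301 to 11519 CPM) and parental mice (10085 to 14196 CPM) overlapped. Of the difference in mean classical level between E0771-Res2 and parental monocytes, 75.0% came from levels within clusters.

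In the dendritic cells no member was called in any comparison of tumor lines. In Cd209a+ cells the 10 members ranged from -0.29 to 0.62 log2 between E0771-Res2 and parental tumors (0% of all 4517 genes called; edgeR, 0 members at an unadjusted p under 0.05), and the other comparisons called 0% and, for E0771-Res2 minus E0771-Res1, 0.0443% of all genes. In Ccr7+ cells 8 of 10 lay above 0 in E0771-Res2 relative to parental tumors (0.0945% of all genes called; edgeR, 5 members at an unadjusted p under 0.05), among them H2-DMb2 (1.12, edgeR adjusted p = 0.581), H2-Ab1 (0.60), H2-Aa (0.47) and H2-Eb1 (0.46). DESeq2 called 0 members there. The parental values rest on 39 and 12 cells, and without parental replicate 1, 1 member was called higher. With cells gated on marker counts, H2-Ab1 (-0.31), H2-Aa (-0.07) and H2-Eb1 (-0.03) changed sign, so that no direction is given for Ccr7+ cells. Lymphoid cells had 0 of 8 called in each comparison (0.0354% of all genes called for E0771-Res1 minus parental, 0.39% for E0771-Res2 minus parental and 0.543% for E0771-Res2 minus E0771-Res1; edgeR, at most 2 at an unadjusted p under 0.05).

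**Figure D5:**
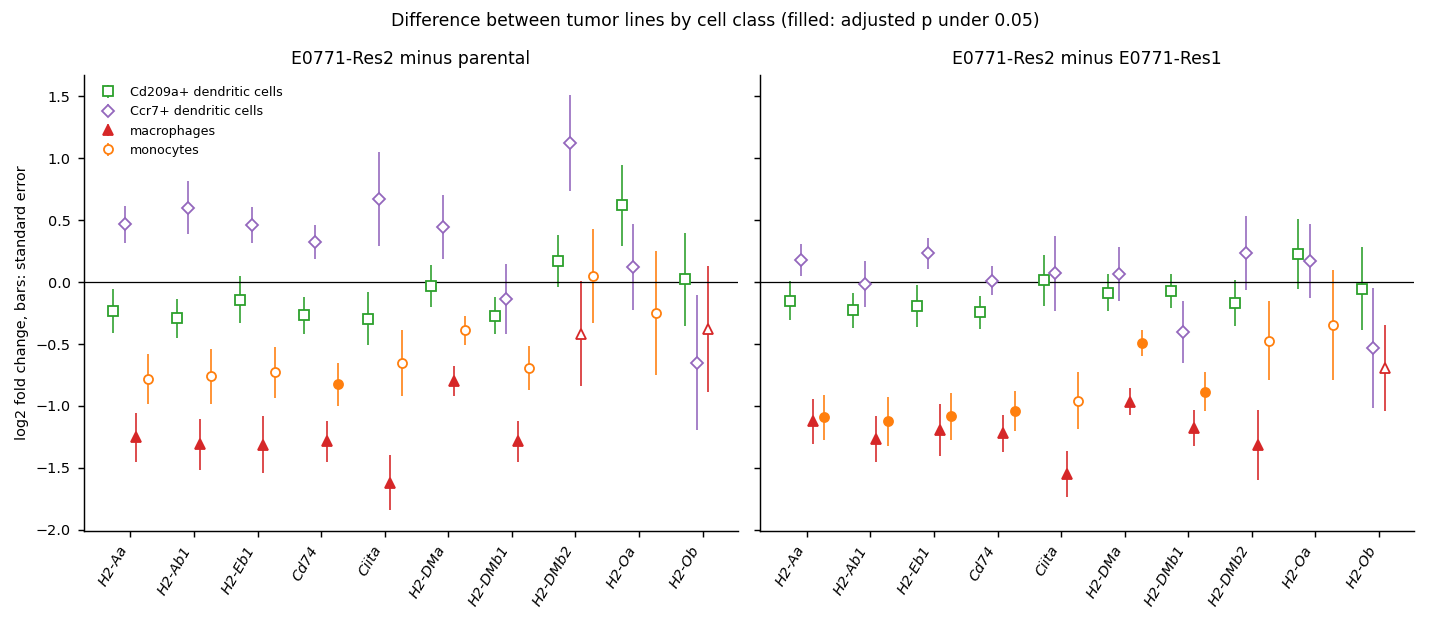
Log2 fold change of each member between tumor lines, with its standard error as a bar, in Cd209a+ and Ccr7+ dendritic cells, macrophages and monocytes, filled where the edgeR adjusted p was under 0.05. Macrophages and monocytes lie below 0 for the classical chains, Cd74, Ciita, H2-DMa and H2-DMb1 in both panels, with Cd74 the one filled monocyte point on the left, while no dendritic cell point is filled.

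Whether the line difference itself differed between cell classes was tested with both classes of each mouse in 1 edgeR model, a test chosen after seeing the data. Relative to Ccr7+ dendritic cells, the E0771-Res2 minus parental difference was more negative in macrophages for 6 of 10 members (0.236% of all genes called), by -2.33 for Ciita, -2.01 for H2-Ab1 and -1.75 for H2-Aa (edgeR adjusted p = 0.00537, 7.23e-06 and 1.92e-06), and E0771-Res2 minus E0771-Res1 for 7 of 10 (0.348% of all genes called). In the Ccr7+ cells of parental replicate 3, Ciita rested on 3 counts. With gated cells, Ciita and H2-DMa lost their call against Ccr7+ cells in both contrasts. Cd74, H2-Aa, H2-Ab1 and H2-Eb1 kept theirs. Relative to Cd209a+ dendritic cells no member was called for that contrast (0.0754% of all genes called; edgeR, 7 members at an unadjusted p under 0.05), the nearest being Cd74 (-0.97, edgeR adjusted p = 0.0516), and 4 of 10 were called for E0771-Res2 minus E0771-Res1 (0.226% of all genes called). Macrophages and monocytes differed in 1 member each for E0771-Res2 against parental tumors (H2-Eb1, -0.57; 0.362% of all genes called) and against E0771-Res1 tumors (H2-DMa, -0.48; 0.786% of all genes called). For E0771-Res1 minus parental none of 10 was called in macrophages against Cd209a+ cells (0.0377% of all genes called), Ccr7+ cells (0%) or monocytes (0.145%; edgeR, 0, 2 and 5 members at an unadjusted p under 0.05). For E0771-Res2 minus E0771-Res1, gated cells gave 6 members called against Cd209a+ cells, Ciita not among them. With clusters, the count of 4 against Cd209a+ cells depended on single mice. It went from 4 to 0 without E0771-Res1 replicate 3, E0771-Res2 replicate 1 or E0771-Res2 replicate 3, to 1 without E0771-Res1 replicate 1, to 2 without E0771-Res2 replicate 2, and to 7 without parental replicate 3 or E0771-Res1 replicate 2, and the count of 0 for E0771-Res2 minus parental went to 2, 5, 5 and 3 without parental replicate 3 and E0771-Res1 replicates 1, 2 and 3.

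In all CD45+ cells together the classical sum was 10241 and 9489 CPM in parental, 11328, 6557 and 12755 CPM in E0771-Res1 and 5452, 6052 and 6606 CPM in E0771-Res2 tumors, so E0771-Res2 replicate 3 lay above E0771-Res1 replicate 2. In such sums fewer cells of a type and less RNA per cell cannot be told apart. Here 5 of 10 members were lower than in parental tumors (4.35% of all genes called, 2.24% called lower): Cd74 by -0.83, H2-DMb1 by -0.86, Ciita by -0.80, H2-Ab1 by -0.78 and H2-DMa by -0.60, and none was called without either parental mouse, 3 without E0771-Res2 replicate 1 or 3. Against E0771-Res1, 6 of 10 were lower (4.2% of all genes called, 1.71% called lower), and 3 without E0771-Res1 replicate 3, E0771-Res2 replicate 1 or E0771-Res2 replicate 3. Between E0771-Res1 and parental tumors none of 10 was called (0.0354% of all genes; edgeR, 1 member at an unadjusted p under 0.05). Macrophages made up 24.2%, 33.8% and 42.6% of parental, E0771-Res1 and E0771-Res2 cells, monocytes 45.7%, 38.0% and 26.3%, Cd209a+ dendritic cells 4.22%, 2.84% and 2.15% and Ccr7+ dendritic cells 2.73%, 2.50% and 2.45%. Cells of clusters left unnamed made up 9.87%, 10.3% and 17.2%. They included the shallow cluster C3, nearest to macrophages by marker score, with 855 cells, 541 of them from E0771-Res2. The classical sum of the unnamed cells was 6961 and 6245 CPM in parental mice. It was 6818, 6682 and 11039 CPM in E0771-Res1 and 5647, 4541 and 5554 CPM in E0771-Res2 mice. When the classical difference of -3968.5 CPM between E0771-Res2 and parental means was divided by class, levels within classes gave -3980.2 CPM and class shares 11.7 CPM, and for Ciita levels gave 80.7%. With classes set by marker gates, levels gave -4360.5 CPM and shares 385.3 CPM of the classical difference, and for Ciita levels gave 100.4%. The size of the parts thus depended on how the classes were set, while levels within classes were the larger part in both settings.

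Genes that act upstream of or beside the set were taken as lists. Among the regulators tested in macrophages, which include the X and Y box factors (Rfx5, Rfxap, Rfxank, Creb1, Nfya, Nfyb and Nfyc), the interferon-induced factor Irf1 (-0.88) and the feedback inhibitor Socs1 (-0.88) were lower in E0771-Res2 than in parental tumors, and none of the X and Y box factors was called. Of 14 interferon γ response genes 7 were lower, beside 1.58% of all genes called lower, the guanylate-binding proteins Gbp5 (-0.94), Gbp2 (-0.88) and Gbp4 (-0.62), the GTPase Iigp1 (-1.16), the chemokine Cxcl10 (-0.62), and Tap1 (-0.53) and Psmb9 (-0.44) of class I peptide supply, with a list median of -0.57. Against E0771-Res1, the Irf1 difference was -0.10 and that of Socs1 -0.29, neither of them called, and the interferon list had 3 lower (Cxcl9 at -1.15, Cxcl10 at -1.01 and Gbp5 at -0.60) and 1 higher (B2m at 0.38), with a median of -0.00, beside 8.84% of all genes called and 4.7% called lower. The part of interferon signaling in the class II difference was not tested.

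Of 10 genes of class II peptide handling tested in macrophages, Cd37, a tetraspanin of antigen-presenting cells, was higher in E0771-Res2 than in parental tumors (0.73). Against E0771-Res1, the proteases Ctsb (0.54), Ctss (0.45) and Lgmn (0.33), and Cd37 (0.48), were higher and Ifi30 was lower (-0.50). Of 6 costimulatory genes, Cd80 was lower against parental tumors (-0.90), and against E0771-Res1 Cd40 was lower (-0.62) and Pdcd1lg2, which encodes PD-L2, higher (0.56). In E0771-Res1 relative to parental macrophages, Irf1 (-0.78) and Tap1 (-0.57) were lower. Of all genes tested in macrophages, 2.63% were called between E0771-Res2 and parental tumors. The share was 8.84% between E0771-Res2 and E0771-Res1 and 0.624% between E0771-Res1 and parental tumors. Monocytes had Cxcl10 higher (0.43) and Cd80 lower (-0.67) in E0771-Res2 than in parental tumors, beside 0.771% of all genes called. Neither dendritic cell class had a listed gene called, and H2-Eb2, the remaining class II locus gene measured, was called nowhere. In lymphoid cells, whose class II values stood beside those of myeloid genes as given above, Ctsb (0.92), Ctss (0.72) and Ctsl (0.63) were higher in E0771-Res2 than in parental tumors (0.39% of all genes called), and Ctsb, Ctss, Ctsl and Lgmn against E0771-Res1 (0.543%). By class, 5 of the 6 costimulatory genes were highest in Ccr7+ dendritic cells.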

How the data were processed

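Sorted CD45+ cells of 8 mice were profiled by droplet-based 3′ single-cell RNA-seq, and the authors deposited, mouse by mouse, raw counts of unique molecular identifiers in each gene and cell, which had not been normalized. Per the file headers Cell Ranger 6.1.2 made the matrices; the submitters' processing notes name Cell Ranger, Seurat and mm10. The 9 tag features were left out. Following the study's methods, cells needed 500 to 6000 genes and a mitochondrial share below 10%, and mt-, Rpl, Rps and Gm genes were dropped (8652 genes, leaving 23633).

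Cells were clustered without the 10 members by SCTransform (sctransform 0.4.2, Seurat 5.3.0, R 4.3.3; 3000 variable genes, 50 components, resolution 1.2, 24 clusters) and named from marker lists, with score limits (0.4, margin 0.2, at least 4 markers up) set after seeing the clusters. Scrublet (scanpy 1.11.5) marked 53 kept cells (0.50%), taken as a failed call, so doublets were kept. Counts were summed per mouse and class (10 cells or more). Tumor lines were compared with edgeR 4.0.16 (TMM, quasi-likelihood test, filterByExpr, all 8 mice in 1 fit per class, Benjamini-Hochberg over all genes, threshold 0.05), and DESeq2 1.42.0 was an alternative. Classes and ratios were compared within mice by exact permutation tests (scipy 1.17.1). On simulated counts (macrophages, E0771-Res2 minus parental, log2 change of 1.5) edgeR recovered 86.7% of changed genes. The simulated spread between mice was a single preset value for every gene, not taken from these data, so this share need not hold for the members. Replicates differed by more than sampling noise (chi-square per degree of freedom 2.66 to 12.5). Each replicate is a separate mouse given the same line.

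All 10 members are described, and a fold change between lines is named for members that were called, otherwise as counts and ranges; listed pathway genes are named where called, except 1 gene that is not reported here. The members and lists were chosen with earlier results of these data known. Alternatives to the edgeR fit were DESeq2, upper-quartile factors, library totals without factors, no low-count filter, a replicate block and leaving out each mouse. Alternatives for the cells and levels were marker gates, resolution 2.0, other cell filters, removal of the highest 5% of doublet scores, another pseudocount and thinning to 1000 counts.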

Additional observations from a re-analysis of the deposited data

Results flagged for a closer look

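The results of this kind concern line effects that differed between 2 cell classes of the same mice, by edgeR's test of the difference with Benjamini-Hochberg adjustment (adjusted p under 0.05); values are log2, macrophages minus the other class, and the test was chosen after seeing the data. Against Ccr7+ dendritic cells, E0771-Res2 minus parental differed by -2.33 for Ciita, -2.01 for H2-Ab1, -1.80 for H2-Eb1, -1.75 for H2-Aa, -1.63 for Cd74 and -1.29 for H2-DMa. For E0771-Res2 minus E0771-Res1 the differences were -1.67 for Ciita, -1.64 for H2-DMb2, -1.37 for H2-Eb1, -1.27 for H2-Aa, -1.22 for H2-Ab1, -1.22 for Cd74 and -1.09 for H2-DMa. With marker gates, only Cd74, H2-Aa, H2-Ab1 and H2-Eb1 kept their call against Ccr7+ cells in either contrast.

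Against Cd209a+ dendritic cells, E0771-Res2 minus E0771-Res1 differed by -1.54 for Ciita, -1.07 for H2-DMb1, -0.95 for H2-Ab1 and -0.92 for Cd74. With marker gates Ciita lost that call, while H2-DMb1, H2-Ab1 and Cd74 kept theirs. At resolution 2.0 only Ciita kept its call. Against monocytes, E0771-Res2 minus parental differed by -0.57 for H2-Eb1 and E0771-Res2 minus E0771-Res1 by -0.48 for H2-DMa. Ccr7+ dendritic cells rested on as few as 11 cells in a mouse.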

How the results depend on the processing

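Of the summaries under the alternatives, 388 kept their direction and side of the threshold, 35 lost calls, 27 gained calls and 5 moved; of the values of single members, 604 kept their direction and side, 61 lost and 2 gained a call, and 4 reversed. The 4 were differences between Ccr7+ and Cd209a+ dendritic cells that had not been called: H2-DMb2 (0.38) and H2-Eb1 (0.054) with marker gates, H2-DMb2 (0.0088) without E0771-Res1 replicate 2 and H2-Oa (-0.0031) without E0771-Res1 replicate 3. Over all single-mouse omissions, H2-DMb2 ran from -0.39 to 0.0088 and H2-Oa from -0.0031 to 0.17. The number of members lower in E0771-Res2 than in parental monocytes moved most: 0 with DESeq2, 7 without the low-count filter, 3 with marker gates, 0 at resolution 2.0 and 2 without the highest doublet scores, while E0771-Res2 minus E0771-Res1 gave 3 with DESeq2. Without the low-count filter, lymphoid cells had 3 lower against E0771-Res1 and 1 against parental tumors. Marker gates took the Ciita ratio to -0.607. The share of macrophages over 20 counts was 33.9%, 28.6% and 8.65% (parental, E0771-Res1, E0771-Res2) when cells were thinned to 1000 counts, and 53.4% and 22.9% (parental, E0771-Res2) with marker gates. Of the tests between classes, those against Ccr7+ cells (E0771-Res2 minus E0771-Res1) gave 4 with marker gates and 4 at resolution 2.0, those against Cd209a+ cells gave 4 and 3 (E0771-Res2 minus parental) and 1 at resolution 2.0 (E0771-Res2 minus E0771-Res1), and those against monocytes gave 4 and 2 (E0771-Res2 minus parental), 0 and 0 (E0771-Res2 minus E0771-Res1) and 2 at resolution 2.0 (E0771-Res1 minus parental). Marker gates gave 6 against Cd209a+ cells for E0771-Res2 minus E0771-Res1, Ciita not among them. The causes were not tested.

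Leaving out each mouse in turn gave 7 to 8 (against E0771-Res1) and 2 to 7 (against parental) members lower in E0771-Res2 macrophages, 4 to 7 and 0 to 5 in monocytes, and 3 to 8 and 0 to 7 in all CD45+ cells. It gave 0 to 1 members higher in Ccr7+ cells of either resistant line and 0 to 2 in E0771-Res1 monocytes. Neighbor pairs passing were 24 to 29 of 44, the Ciita ratio -2.75 to -2.06, the H2-DMb2 share difference 30.5 to 37.7 and the H2-O ratio difference 0.107 to 0.126. Between classes, the counts were 4 to 7 (E0771-Res2 minus E0771-Res1) and 5 to 7 (E0771-Res2 minus parental) against Ccr7+ cells, 0 to 7 and 0 to 5 against Cd209a+ cells, and 0 to 1, 0 to 3 and, for E0771-Res1 minus parental, 0 to 1 against monocytes.

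Replicate numbers name different mice, and same-numbered mice did not deviate together (correlations -0.092 to 0.120). With the replicate number as a block, members lower in E0771-Res2 than in parental tumors were 3 in monocytes, 7 in macrophages and 4 in all CD45+ cells.

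The limits were the 2 parental mice, 1 line per resistant group, 11 to 63 Ccr7+ dendritic cells per mouse, the shallower E0771-Res2 cells and the few counts of H2-Oa, H2-Ob and H2-DMb2. Those counts were few outside dendritic cells and also in the Ccr7+ dendritic cells of single mice, and no detection limit was computed for them.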
